A study of Oncorhynchus gorbuscha with 76 samples.

Results

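Testes of pink salmon (Oncorhynchus gorbuscha), which breed a single time at the end of their life, were compared between males labelled river and males labelled ocean. The 10 libraries were the male gonad libraries with these labels, 5 of river males (fish 2, 3, 4, 5 and 6) and 5 of ocean males (fish 1, 3, 6, 8 and 9), of 76 libraries in the series. The series covers muscle, head kidney and gonads of both sexes at 3 stages of the return migration (ocean, river and spawning). Tissue was kept in RNAlater, RNA was isolated with Trizol, and polyA-enriched libraries were sequenced. Apart from stage, sex and tissue the labels give no treatment, genotype, strain or age, and the labels say nothing of how far spermatogenesis had gone in any male. Fish numbers restart at each stage, so ocean male 3 and river male 3 are different fish. The 5 spawning testis libraries entered the fit and are shown for reference, and the 8 ovary libraries of ocean and river females were used for 1 test of the difference between gonads.

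Spermatogenesis runs from spermatogonia, which divide by mitosis, through spermatocytes in meiosis to spermatids, which condense the nucleus and build a flagellum. In salmon this takes place in cysts of germ cells enclosed by Sertoli cells, under control of pituitary gonadotropins that act on Sertoli cells and on the steroid-making Leydig cells between the tubules. The libraries came from testis tissue, so a higher share of a cell type and more RNA per cell of that type cannot be told apart in any value below.

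Total counts of the 10 libraries ran from 12872591 to 17696550, and a library detected between 23934 and 27277 genes with 10 counts or more. Germ cell and somatic markers of testis were present in every one of the 10 libraries, among them ddx4, sycp3, amh and insl3. In ocean males 5.83% ± 0.411 (SD, n = 5) of all counts fell on the top 10 genes of each library, and in river males 7.10% ± 0.725 (SD, n = 5) did (2-sided exact permutation p = 0.0159). River males 2 and 6 stood nearer to the spawning testes than the other 3 river males did: their mean correlation across genes of log2 CPM with the 5 spawning libraries was 0.449 and 0.401, against 0.313 to 0.321. For the ocean males this correlation was 0.326 to 0.357, so the other 3 river males were no nearer to spawning than the ocean males. In the muscle library labelled river male 6, the glycolytic gene gapdh was at 5.21 CPM (scaled by library size), against 896 to 8145 CPM in river males 2 to 5 and 12.9 to 19.1 CPM in spawning males. Muscle of ocean males was at 20022 to 33751 CPM, above all river males. Levels are CPM, counts relative to the library total after TMM scaling, changes are log2 fold changes of river minus ocean ± SE from the edgeR quasi-likelihood fit, and a call is a Benjamini-Hochberg adjusted p under 0.05 over all genes tested. Values by fish are always in the order ocean males 1, 3, 6, 8 and 9, then river males 2, 3, 4, 5 and 6.

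The river testis differed from the ocean testis in transcripts of most testicular compartments. Transcripts of germ-cell RNA and piRNA factors, of DNA replication and of ribosomal proteins were lower in river males, with 13 of 16, 26 of 35 and 23 of 32 tested genes called as falls. Transcripts of the sperm flagellum, of steroid synthesis and of the hormone receptor list were higher, with 39 of 74, 10 of 22 and 8 of 13 risen. So were those of endothelium (10 of 12), matrix (18 of 43) and macrophages and antigen presentation (8 of 15). Of 27 genes of meiotic chromosomes 0 were called. Of 28149 genes tested, 7273 rose (25.8%) and 3764 fell (13.4%), 11037 in all (39.2%), and 6536 (23.2%) were called and did not overlap between the 5 river and the 5 ocean males. Among the 6421 tested genes that carry a symbol, 24.7% rose and 17.4% fell. The median change was 0.25 over all genes tested and 0.16 over those with a symbol. The gene lists hold only genes with a symbol. Their medians are therefore to be set against 0.16 and their counts against 24.7% and 17.4%. Of the called genes 65.9% were higher in river males, against 43.7% when libraries were scaled by library size only, where the median was -0.01. In a fit of ocean and river alone, with 25140 genes tested, 5795 rose and 5522 fell (51.2% higher, median 0.03). Without a filter on low counts 51.3% of called genes were higher. Without river males 2 and 6, a choice made after seeing the data, 3685 genes rose and 2036 fell, and without river male 6 alone 4427 rose and 3649 fell.

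**Figure D1:**
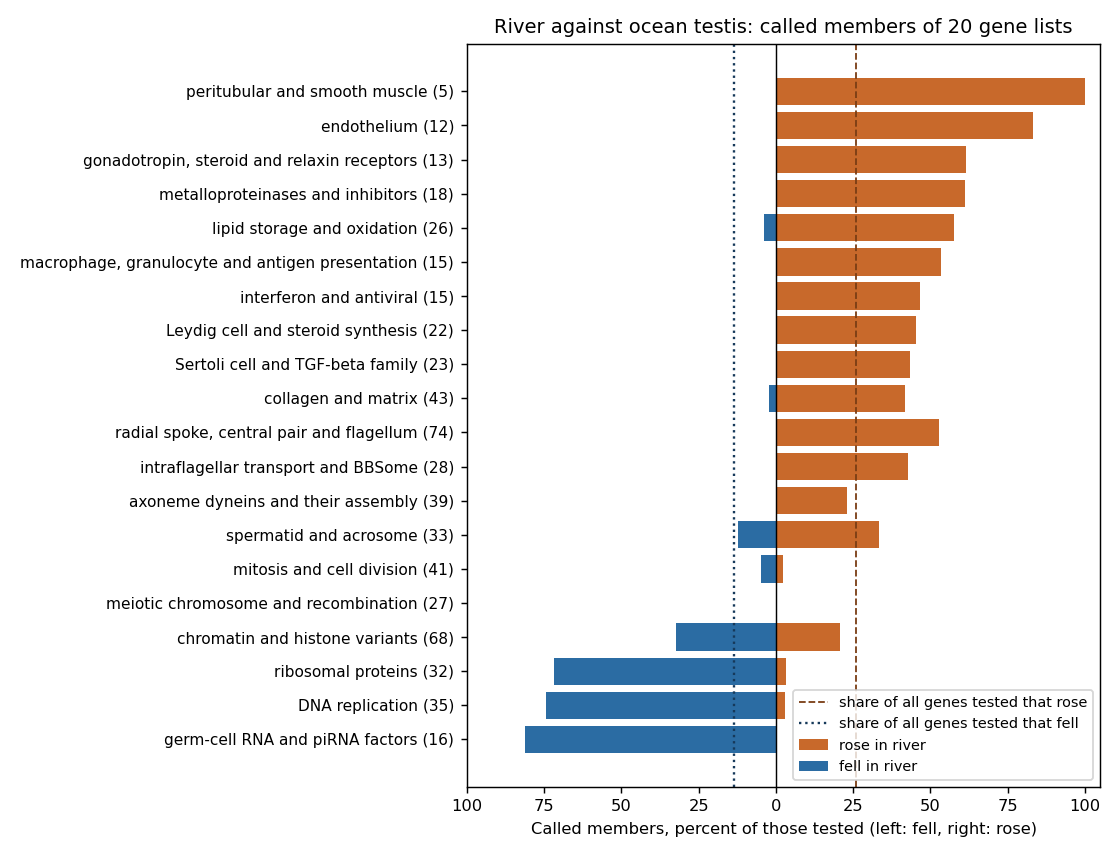
Called members of 20 gene lists in river against ocean testis, as a percentage of the members tested (number in brackets), with members that rose to the right and members that fell to the left of 0. The dashed and dotted lines mark the share of all 28149 genes tested that rose (25.8%) and fell (13.4%). Of genes with a symbol, the only kind on the lists, 24.7% rose and 17.4% fell. The lists of piRNA factors, DNA replication and ribosomal proteins extend to the left, those of smooth muscle, endothelium and receptors to the right. Meiotic genes have no bar.

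Germ-cell RNA helicases, PIWI proteins and Tudor proteins, which silence transposons and store RNA in germ cells, were lower in the river testis. Of 16 tested genes of this list 13 fell and 0 rose, with a median change of -0.86. The germ-cell helicase ddx4 (vasa) stood at 1069.7, 1231, 746, 907 and 1012 CPM in ocean males and at 429, 639, 401, 677 and 255 CPM in river males. Every river male was below every ocean male, and river male 6 was lowest (-1.05 ± 0.32, adjusted p = 0.018). The PIWI gene piwil2 was at 59.3, 69.0, 51.7, 55.6 and 52.3 CPM and at 20.7, 29.1, 21.6, 31.1 and 12.7 CPM. Its groups did not overlap either, and river male 6 was again lowest (-1.32 ± 0.28, adjusted p = 0.00295). For piwil1 the values were 193, 199, 151, 191 and 187 CPM and 84.6, 104.96, 74.0, 160.2 and 45.3 CPM (-0.97 ± 0.28, adjusted p = 0.0175), and river male 5 lay above ocean male 6. Tudor genes moved in the same direction: tdrd1 changed by -1.13 ± 0.24 and tdrd5 by -1.08 ± 0.25. The members not called were asz1, tdrd12 and tdrd7b. The summed level of the list was 2751, 2933, 2069, 2499 and 2611 CPM in ocean males and 1169, 1659, 1221, 1868 and 926 CPM in river males, and at spawning it was 15.97 to 24.9 CPM. The 13 falls became 8 without ocean male 1 and 7 without river males 2 and 6. In the latter fit ddx4 (adjusted p = 0.0937) and piwil1 (0.065) were no longer called, against 0.00264 to 0.0937 and 0.00235 to 0.065 over the alternatives without a replicate block.

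DNA replication genes were lower in river males as well. Of 35 tested, 26 fell and 1 rose, with a median change of -0.74. The maintenance DNA methyltransferase dnmt1 was at 416, 469, 430.4, 397 and 369 CPM in ocean males and at 181, 276, 199, 327 and 191 CPM in river males. River males 2, 4 and 6 were lowest, and river males 3 and 5 lay between them and the lowest ocean male (-0.83 ± 0.17, adjusted p = 0.00272). The origin recognition subunit orc3 stood at 62.5, 62.0, 53.9, 51.8 and 49.6 CPM and 28.7, 38.9, 28.8, 35.2 and 22.5 CPM (-0.86 ± 0.15, adjusted p = 0.000926), with no overlap. The clamp loader subunit rfc3 changed by -1.06 ± 0.23. The single member that rose was rrm2b, a ribonucleotide reductase subunit known in mammals as a p53 target, at 2.02, 1.61, 2.41, 1.92 and 1.78 CPM and 4.51, 2.46, 3.25, 3.62 and 5.37 CPM (0.98 ± 0.22, adjusted p = 0.00441). In summed level river males 6 and 2 were lowest and river males 5 and 3 nearest to the ocean: 5234, 5774, 4648, 4940.0 and 4617 CPM in ocean males and 2483, 3811, 2813, 4196 and 2216 CPM in river males. Without river males 2 and 6 only 6 of the members fell.

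Ribosomal protein genes fell in 23 of 32 cases and rose in 1, with a median change of -0.57. The list takes in kinases named rps6k and the regulator rps19bp1, which was the member that rose. The small-subunit protein gene rps20 was at 512, 582, 384, 452 and 441 CPM in ocean males and 309, 285, 205, 304 and 162 CPM in river males. River males 4 and 6 were lowest, and no river male reached an ocean male (-0.91 ± 0.20, adjusted p = 0.00417). The genes rps7 (-0.86 ± 0.20) and rpl7l1 (-1.15 ± 0.25), a relative of rpl7, also fell. The falls numbered 12 without ocean male 3 and 12 without river males 2 and 6. The call of rps19bp1 (0.55 ± 0.17, adjusted p = 0.0197) was lost under 8 of 16 alternatives (0.0238 to 0.198).

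Proliferation and meiosis genes showed far fewer calls. Of 41 tested genes of mitosis and cell division, 1 rose and 2 fell, with a median change of 0.04. The proliferation marker mki67 was at 1366, 1673, 1593, 1196 and 1234 CPM in ocean males and 941, 1585, 1539.8, 1519 and 1289 CPM in river males. The groups overlapped, with river male 2 alone below the ocean range (-0.04 ± 0.37, adjusted p = 0.943). Topoisomerase top2a fell, from 1244, 1466, 1177, 1163 and 1024 CPM to 499, 904, 684, 901 and 534 CPM (-0.79 ± 0.25, adjusted p = 0.0215), and the augmin subunit haus1 fell by 0.87 ± 0.24 (adjusted p = 0.0607 without river males 2 and 6, range 0.000404 to 0.0607). The top2a call was lost without ocean male 3 (adjusted p = 0.0543) and without river males 2 and 6 (0.13), within a range of 0.00499 to 0.13. The cytokinesis kinesin kif23 rose (0.90 ± 0.24, adjusted p = 0.00885). Of 27 meiotic chromosome and recombination genes 0 were called, with a median of 0.03. The synaptonemal complex gene sycp3 was at 353, 301, 353, 333 and 336 CPM and 256, 383, 376, 333 and 412 CPM (0.07 ± 0.16, adjusted p = 0.743), and the recombinase dmc1 at 413, 434, 469, 438 and 421 CPM and 299, 506, 393, 383 and 412 CPM (-0.13 ± 0.21, adjusted p = 0.657). The transverse filament gene sycp1 ranged from 2601 to 9891 CPM in ocean males and from 6365 to 15090 CPM in river males (0.57 ± 0.40, adjusted p = 0.265). At spawning sycp3 was at 0 CPM in all 5 males, sycp1 at 0, 0.0596, 0, 0.141 and 0.183 CPM and dmc1 at 1.298, 0.596, 0.653, 1.49 and 1.46 CPM. The falls depended on the scaling and on single libraries: 5 meiotic and 9 mitotic genes fell with library size only, 4 and 10 in a fit of ocean and river alone, 1 and 8 without a filter on low counts, and 1 and 4 with DESeq2. Without river male 5 there were 2 meiotic and 8 mitotic falls, without river male 3 there were 1 and 5, and without river males 2 and 6 there were 0 and 0. A single meiotic gene rose with DESeq2, in the fit of ocean and river alone and without ocean male 6.

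Genes of the flagellum were higher in the river testis. Of 74 tested genes of the radial spokes, central pair and other flagellar parts, 39 rose and 0 fell, with a median change of 0.90. The axonemal protein gene cfap276 was at 11.8, 16.7, 30.8, 21.4 and 24.9 CPM in ocean males and 75.1, 59.3, 134, 69.6 and 118 CPM in river males. All river males were above all ocean males, with river males 4 and 6 highest (2.11 ± 0.33, adjusted p = 0.00055). The same held for cfap157, at 48.8, 79.0, 100.1, 76.6 and 69.5 CPM and 210.1, 173, 239, 169.5 and 288 CPM (1.53 ± 0.20). The calcium-binding protein gene efcab6 stood at 17.7, 30.02, 67.2, 29.4 and 38.6 CPM and 197, 135, 199.7, 164 and 180.2 CPM (2.26 ± 0.34). Ocean male 6 was the highest ocean male for these genes and ocean male 1 the lowest. Summed over the list, the level was 10257, 11616, 17849, 12982 and 13580 CPM in ocean males and 21991, 24812, 34318, 24135 and 32384 CPM in river males. The 39 rises became 24 with library-size scaling, 24 and 25 when ocean males 1 and 3 were left out, 18 and 20 when river males 4 and 6 were left out, and they were 27 without river males 2 and 6. In a fit of ocean and river alone they numbered 57.

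Axonemal dyneins, which drive the beat of the flagellum, rose in 9 of 39 tested cases and fell in 0 (median 0.72). Of genes with a symbol 24.7% rose. The inner-arm heavy chain dnah3 was at 129, 229, 383, 242 and 296 CPM in ocean males and 947, 918, 1888, 1330.3 and 1942 CPM in river males (2.46 ± 0.52, adjusted p = 0.00297). The lowest river male was well above the highest ocean male, and river males 4 and 6 were highest. The assembly factor dnaaf4 changed by 0.89 ± 0.19 and the light chain dynlt5 by 1.84 ± 0.34. The 9 rises became 20 in a fit of ocean and river alone, 5 with library-size scaling or without a filter, 4 without river male 4, 4 without river male 6 and 5 without river males 2 and 6. Intraflagellar transport and BBSome genes, which carry cargo into growing cilia, rose in 12 of 28 cases (median 0.46). Among them were cluap1, at 71.0, 87.7, 144, 126 and 96.3 CPM and 242, 170.3, 373, 173 and 325 CPM (1.29 ± 0.25), and the kinesin-2 motor kif3b (0.60 ± 0.13). Their number was 7 with RLE scaling, 5 with library size, 6 without a filter, 6 and 7 without ocean males 1 and 3, and 7, 4, 6 and 5 without river males 3, 4, 5 and 6.

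Spermatid and acrosome genes rose in 11 of 33 cases and fell in 4 (median 0.54). Of tested genes with a symbol 24.7% rose and 17.4% fell. The gene dcst1, needed in mice and flies for sperm to fertilise, was at 5.57, 10.4, 13.8, 9.73 and 11.8 CPM in ocean males and 40.8, 26.5, 54.8, 30.8 and 54.4 CPM in river males, with no overlap (2.01 ± 0.35, adjusted p = 0.000968). Transcripts of ccdc62 were at 75.8, 85.4, 134, 98.7 and 108 CPM and 205, 202, 332, 220.0 and 269.6 CPM (1.29 ± 0.18). The 4 that fell were gopc, spata13, spata20 and spata5, of which spata13 encodes a guanine nucleotide exchange factor and spata5 an ATPase of ribosome maturation. The riser tex10 (1.62 ± 0.25) encodes a nucleolar protein. The potassium channel gene kcnb2b, on the list of ion channels, was at 0.974, 2.31, 1.72, 2.84 and 1.94 CPM in ocean males, 15.1, 8.89, 16.3, 12.5 and 10.1 CPM in river males (2.68 ± 0.32, adjusted p = 0.000272) and 0 CPM in all 5 spawning males. Among spermatogonial genes, 2 of 5 tested rose and 0 fell. The zinc finger gene sall4 was at 6.47, 7.39, 18.9, 12.8 and 13.99 CPM and 47.2, 38.9, 93.0, 45.1 and 57.8 CPM (2.24 ± 0.37, adjusted p = 0.000687), and reached at most 0.183 CPM at spawning. The GDNF receptor gene gfra1a was called (2.12 ± 0.73, adjusted p = 0.0315) but lost its call under 11 of 16 alternatives (0.0035 to 0.153). The retinoic acid binding protein gene crabp2b rose from 5.29, 6.82, 9.99, 10.3 and 9.10 CPM to 31.5, 18.8, 41.2, 15.6 and 37.1 CPM (1.795 ± 0.34), and was at 0 to 0.305 CPM at spawning.

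**Figure D2:**
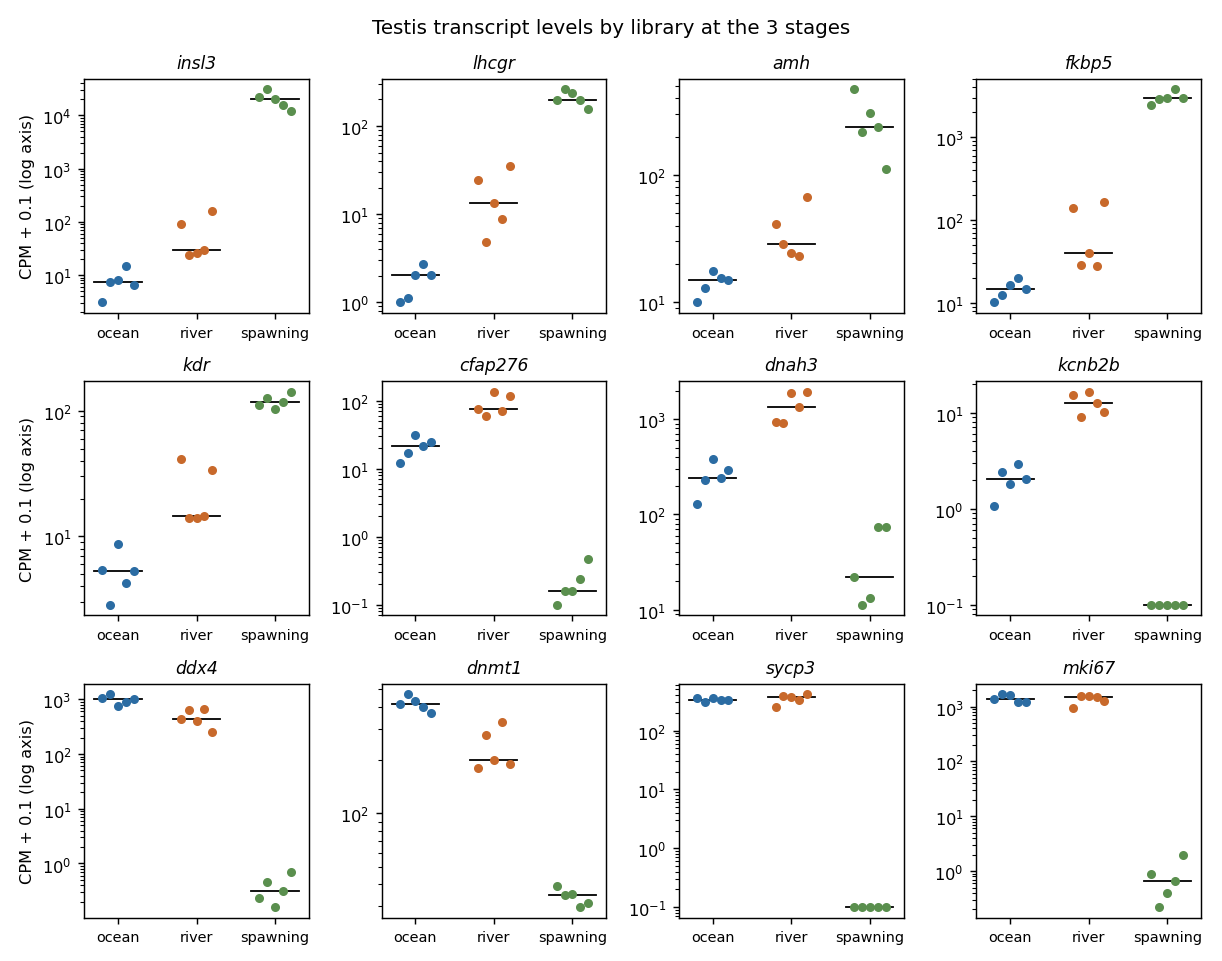
CPM + 0.1 on a log axis of 12 genes in each of the 15 testis libraries, 1 point per male in fish order, with a line at the median of each stage. Leydig, Sertoli, endothelial and cortisol-responsive genes (insl3, amh, kdr, fkbp5) go up from ocean to river and again to spawning, flagellar and channel genes (cfap276, dnah3, kcnb2b) are highest in river males, ddx4 and dnmt1 are lower in river than in ocean males, and sycp3 and mki67 overlap between ocean and river.

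Leydig cell and steroid synthesis genes were higher in river males. Of 22 tested, 10 rose and 0 fell, with a median change of 0.75. The relaxin-family hormone gene insl3, a product of Leydig cells, was at 2.99, 7.27, 7.92, 14.5 and 6.35 CPM in ocean males and 89.7, 23.6, 25.7, 29.9 and 161 CPM in river males. River males 2 and 6 were far above the other 3, whose values still exceeded every ocean male (3.08 ± 0.58, adjusted p = 0.0016). At spawning its level was 12050 to 30833 CPM. For star, which brings cholesterol into mitochondria for steroid synthesis, the values were 6.47, 11.3, 15.02, 24.4 and 9.53 CPM and 80.1, 20.7, 25.9, 25.4 and 122 CPM (2.04 ± 0.52, adjusted p = 0.00786). River male 3 lay within the ocean range and river males 4 and 5 barely above its top, and the star call was lost without river males 2 and 6 (adjusted p = 0.145; range 0.0003 to 0.145). The ferredoxin fdx1b, which passes electrons to steroidogenic enzymes, stood at 0.835, 0.9, 1.72, 2.51 and 1.40 CPM and 9.66, 5.32, 5.80, 5.75 and 18.2 CPM (2.59 ± 0.47, adjusted p = 0.00135). The transcription factor gene nr5a1b (steroidogenic factor 1) rose (1.35 ± 0.39, adjusted p = 0.0136) but was not called without river male 2 (adjusted p = 0.0529), without river male 6 (0.0693) or without both (0.278; range 0.00314 to 0.278). The list's rises numbered 6 with library-size scaling, without a filter or in a fit of ocean and river alone, 4 without river male 2, 5 without river male 6 and 2 without both. Falls appeared under some settings, 3 with library-size scaling, 1 without a filter, 2 with DESeq2, 2 in a fit of ocean and river alone, and 2, 1 and 1 without river males 2, 4 and 5.

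Genes of the hormone receptor list were higher too, with 8 of 13 tested risen and 0 fallen (median 1.199). The list was drawn up from receptors for hormones that act on the testis. It also names signalling genes, namely gnas, protein kinase A subunits and phosphodiesterases. The luteinizing hormone receptor lhcgr, carried mainly by Leydig cells, was at 0.905, 1.03, 1.93, 2.65 and 1.94 CPM in ocean males and 24.2, 4.68, 13.2, 8.74 and 34.9 CPM in river males. Every river male was above every ocean male, river males 6 and 2 most so (3.33 ± 0.47, adjusted p = 0.00028), and spawning males were at 157 to 259.7 CPM. The follicle-stimulating hormone receptor fshr, carried by Sertoli cells and in salmonids also described in Leydig cells, was at 6.26, 6.56, 7.10, 8.07 and 5.65 CPM and 29.5, 8.02, 10.3, 9.30 and 20.01 CPM. River male 3 was just under the highest ocean male (1.199 ± 0.30, adjusted p = 0.00754), and the call was lost without river males 2 and 6 (0.0782; range 0.000945 to 0.0782). The estrogen receptor gene esr1 was at 1.32, 1.48, 1.17, 1.19 and 0.915 CPM and 6.70, 2.86, 3.69, 1.63 and 10.3 CPM (2.04 ± 0.39, adjusted p = 0.00171), with no overlap. The growth hormone receptor ghrb (2.42 ± 0.46) and the progestin receptor family gene paqr9 (2.33 ± 0.38) also rose. The nuclear progestin receptor pgr was at 5.78, 8.49, 2.82, 6.68 and 4.74 CPM and 11.98, 4.92, 6.59, 5.18 and 12.1 CPM and was not called (0.52 ± 0.35, adjusted p = 0.246). Without river males 2 and 6 there were 5 rises on the list.

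Sertoli cell and TGF-beta family genes rose in 10 of 23 cases and fell in 0 (median 0.98). The anti-Müllerian hormone gene amh, made by Sertoli cells and known in zebrafish to restrain germ cell differentiation, was at 9.88, 12.7, 17.6, 15.4 and 14.7 CPM in ocean males and 41.0, 28.3, 24.1, 22.9 and 66.4 CPM in river males. All river males were above the ocean males and river males 6 and 2 were highest (1.38 ± 0.36, adjusted p = 0.00833). Without these males its adjusted p was 0.093 (range 0.000962 to 0.093). The transcription factor gata4 was at 14.1, 7.39, 7.65, 7.81 and 12.4 CPM and 49.7, 10.0, 11.7, 11.2 and 25.01 CPM, with river male 2 apart from the rest (1.13 ± 0.39, adjusted p = 0.0334). That call was lost under 9 of 16 alternatives (0.0169 to 0.725), among them the fits without ocean male 3, 6 or 8 and without river male 2 or 6. The sex determination factor dmrt1 (0.32 ± 0.27, adjusted p = 0.357) and the fish testis growth factor igf3 (0.70 ± 0.47, adjusted p = 0.24) were not called. For both, river male 2 was highest, at 87.8 CPM for dmrt1 and 48.8 CPM for igf3. The rises on the list numbered 5 with library-size scaling, 6 without a filter, 4 in a fit of ocean and river alone, 6 and 5 without ocean males 1 and 3, 4, 6 and 3 without river males 2, 4 and 6, and 0 without river males 2 and 6.

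Vessel and smooth muscle genes had the highest median changes of the 39 gene lists. Of 12 endothelial genes tested 10 rose and 0 fell (median 1.88), and without river males 2 and 6 there were 7 rises. The vascular endothelial growth factor receptor kdr was at 5.29, 2.76, 8.54, 4.17 and 5.22 CPM in ocean males and 41.1, 13.97, 13.8, 14.6 and 33.8 CPM in river males. River males 2 and 6 were far above the other 3, which lay close together and above every ocean male (2.17 ± 0.35, adjusted p = 0.000591). The Notch ligand dll4 was at 1.32, 1.54, 1.93, 2.45 and 1.83 CPM and 9.02, 5.88, 13.5, 5.82 and 13.4 CPM (2.39 ± 0.29) and the scavenger receptor stab2 at 1.39, 2.31, 1.72, 2.58 and 1.88 CPM and 9.41, 9.05, 9.66, 4.90 and 16.1 CPM (2.303 ± 0.31). All 5 genes of the peritubular and smooth muscle list rose (acta2, lmod1b, myocd, tagln and tpm2; median 2.43). The smooth muscle co-activator myocd was at 1.18, 1.8, 2.34, 1.92 and 2.37 CPM and 6.96, 8.495, 14.7, 8.45 and 14.7 CPM (2.46 ± 0.40, adjusted p = 0.000624), with no overlap. Without river male 6 there were 3 rises on this list, and without river males 2 and 6 there were 2. The red cell list moved differently: 1 of 10 genes rose (cahz, a carbonic anhydrase), 2 fell (tfr1b and urod), and its summed level was 127 to 179 CPM in ocean males and 97.3 to 188 CPM in river males. The cahz call was lost under 8 of 16 alternatives (0.00983 to 0.728).

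Collagen and matrix genes rose in 18 of 43 cases and fell in 1 (median 1.13), with 10 rises without river males 2 and 6. The type VI collagen gene col6a1 was at 31.7, 36.6, 34.7, 39.8 and 44.2 CPM in ocean males and 220.4, 69.5, 111, 74.9 and 163 CPM in river males, again with river males 2 and 6 highest and no overlap (1.77 ± 0.33, adjusted p = 0.0015). The cartilage-type collagen gene col2a1b was at 0.278, 0.45, 0.482, 0.595 and 0.431 CPM and 4.06, 1.98, 3.25, 2.41 and 5.47 CPM (2.91 ± 0.36). The member that fell was the laminin gene lamb4 (-0.92 ± 0.28, adjusted p = 0.0202), which was not called without ocean male 3 or ocean male 9 or without river males 2 and 6 (0.00406 to 0.135). Metalloproteinases and their inhibitors rose in 11 of 18 cases (median 1.42), 6 without river male 6 and 7 without river males 2 and 6. The membrane-type proteinase mmp14b was at 1.95, 1.35, 3.72, 3.51 and 2.05 CPM and 25.1, 5.95, 6.76, 3.84 and 16.3 CPM (2.21 ± 0.44), and adamts15a changed by 2.39 ± 0.41.

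Immune cell genes rose as well. Of 15 tested genes of macrophages, granulocytes and antigen presentation 8 rose and 0 fell (median 1.48). The complement gene c1qc, made mainly by macrophages, was at 4.24, 3.66, 6.27, 2.98 and 5.11 CPM in ocean males and 43.3, 9.92, 17.3, 15.3 and 19.5 CPM in river males (2.24 ± 0.38, adjusted p = 0.000898). The pan-leukocyte phosphatase ptprc (CD45) was at 5.50, 10.1, 13.5, 9.33 and 10.0 CPM and 50.8, 38.0, 57.6, 44.3 and 65.6 CPM (2.40 ± 0.30, adjusted p = 0.00013). The groups did not overlap for either gene. River male 2 was far above the other river males for c1qc but not for ptprc. The T, B and NK cell list held 4 tested genes, of which btk, cd247 and cd40 rose, and 1 rise was left without river male 2 or 6 or without ocean male 3 or 9. Of these cd247 did not pass the filter in a fit of ocean and river alone. The btk call was lost under 13 of 16 alternatives (0.00338 to 0.112) and the cd247 call under 7 of 15 (0.0199 to 0.342). Summed over the list, river males 4 and 5 (6.32 and 7.17 CPM) lay within the ocean range of 4.90 to 7.52 CPM. For cd40 river male 3 stood apart, with 0.905, 0.836, 2.34, 1.46 and 1.72 CPM in ocean males and 5.73, 17.3, 3.16, 1.56 and 4.35 CPM in river males. Interferon and antiviral genes rose in 7 of 15 cases (median 0.99), 4 without a filter, 3 without river male 2, 3 without river male 6 and 3 without both. The interferon regulatory factor irf3 was at 10.6, 14.5, 11.9, 16.1 and 14.5 CPM and 61.6, 37.9, 57.4, 38.9 and 99.4 CPM (2.12 ± 0.26, adjusted p = 0.000133) and irf7 at 3.27, 2.51, 2.55, 3.11 and 2.58 CPM and 7.603, 6.99, 11.3, 7.24 and 11.5 CPM (1.67 ± 0.24). The signal transducer stat2 changed by 1.38 ± 0.16.

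Tested markers of muscle, liver, epithelium and adipocytes summed to at most 25.2 CPM in any of the 10 libraries. Those of kidney tubule and ovary reached 113 and 52.3 CPM. Of 7 muscle markers 2 passed the filter on low counts (actc1a and neb, not the parvalbumins), with a summed level of 1.45 to 7.59 CPM in ocean males and 4.84 to 11.4 CPM in river males; of 5 liver markers tfa alone passed (0.964 to 11.3 and 2.38 to 11.4 CPM). The muscle gene neb was called (1.14 ± 0.40) but lost the call under 12 of 16 alternatives (0.00146 to 0.139). Of 3 tested epithelial markers epcam and cldn7a were called and lost the call under 12 and 15 of 16 alternatives (0.0234 to 0.33 and 0.0382 to 0.411), and the list summed to 0.557 to 4.43 and 2.63 to 6.96 CPM. Adipocyte markers cidea and pparg rose, from a sum of 3.76 to 8.10 CPM to 6.75 to 25.2 CPM, and neither was called without river male 6 or without both river males 2 and 6. Kidney tubule markers rose in 3 of 5 cases and fell in 1, summing to 14.5 to 59.1 and 22.9 to 113 CPM. Of these lrp2b fell (-4.19 ± 1.21) with ocean male 3 at 45.3 CPM, and was not called without that male (adjusted p = 0.12) or without river males 2 and 6 (0.0902; range 0.00512 to 0.12). Of 6 ovary markers zar1 and zp3d.1 passed the filter and were not called (27.3 to 38.2 and 28.1 to 52.3 CPM). The part of such tissues in the results was not tested.

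**Figure D3:**
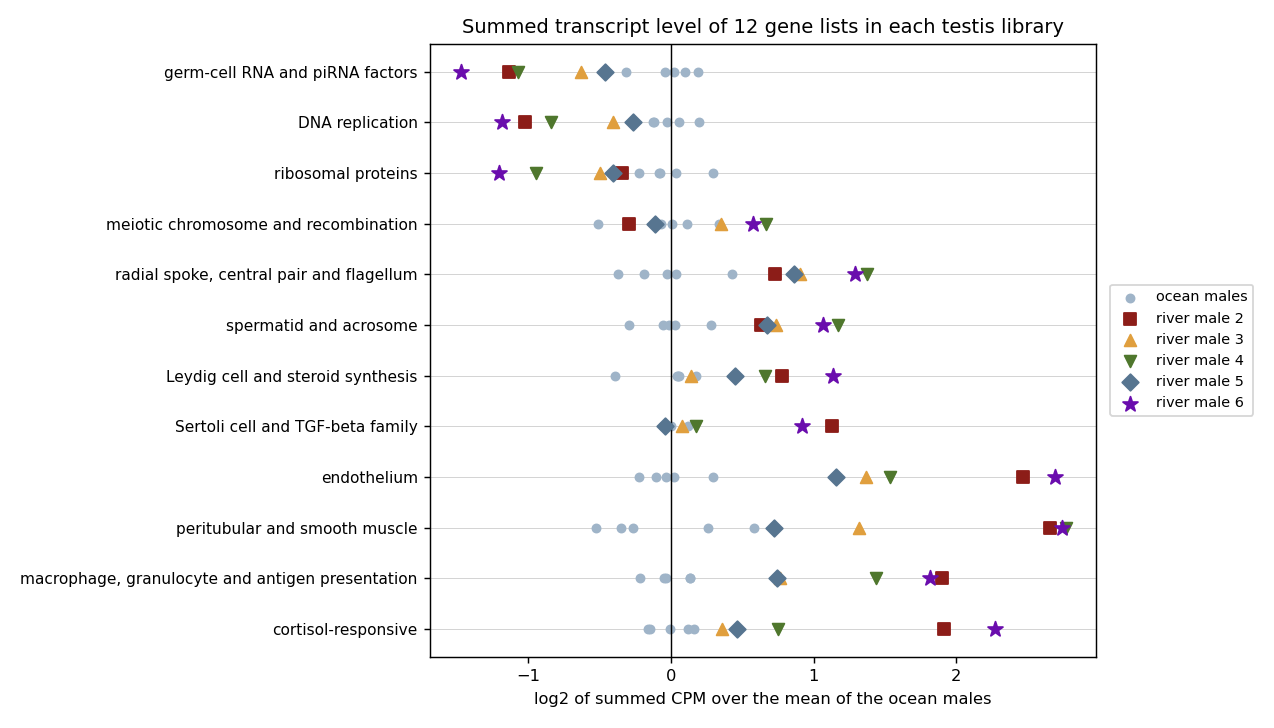
Summed CPM of the tested members of 12 gene lists in each ocean and river testis, as log2 of the ratio to the mean of the 5 ocean males, with 1 symbol per river male. River males 2 and 6 are farthest from the ocean males for DNA replication, endothelium and cortisol-responsive genes, river males 4 and 6 for the flagellum, and river male 5 lies nearest to the ocean males for DNA replication, endothelium and piRNA factors.

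Growth axis and retinoic acid genes had rises and no falls, where 24.7% of tested genes with a symbol rose and 17.4% fell. Of 11 genes of the IGF and growth axis 4 rose and 0 fell (median 0.70), 2 without river male 2 and 1 without river males 2 and 6. River male 2 stood apart, with summed levels of 50.9, 66.9, 52.4, 61.2 and 59.1 CPM in ocean males and 185, 66.5, 84.4, 53.9 and 82.7 CPM in river males. Of 14 retinoic acid genes 5 rose and 0 fell (median 1.06). Junction and adhesion genes rose in 7 of 25 cases, near the share of genes with a symbol that rose, and fell in 0. There were 4 rises in a fit of ocean and river alone and 2 without river males 2 and 6. Ion pumps, channels and water channels rose in 23 of 67 cases and fell in 6, with 15 rises without river male 6 and 14 without river males 2 and 6, and 1 fall when ocean male 1, ocean male 3 or both river males 2 and 6 were left out.

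The 5 river males were not spread alike in every compartment. Endothelial genes summed to 119, 55.7, 62.6, 48.0 and 139 CPM, against 18.4 to 26.5 CPM in ocean males, with river males 6 and 2 on top. Leydig and steroid genes summed to 747, 479, 689, 595 and 956 CPM, against 332 to 491 CPM, and river male 3 remained within the ocean range. Spermatid and acrosome genes summed to 2322, 2500.1, 3369, 2384 and 3128 CPM, against 1221 to 1820.3 CPM, with river males 4 and 6 on top and river male 2 lowest. River male 2 thus had the lowest spermatid sum of the river males while its endothelial and Leydig sums were the second highest. Ribosomal protein genes summed to 6566, 5892, 4322, 6305 and 3607 CPM, against 7136 to 10219 CPM, with river males 6 and 4 lowest.

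Cortisol-responsive genes rose in 3 of 7 cases (fkbp5, cited2 and klf9) and fell in 0. Among genes with a symbol 24.7% rose and 17.4% fell. The rises on the list numbered 2 in a fit of ocean and river alone, without river male 6 and without river males 2 and 6. Over the alternatives without a replicate block they ran from 2 to 4. The glucocorticoid receptor co-chaperone fkbp5, a target of the receptor in many vertebrates, was at 10.1, 12.2, 16.5, 19.8 and 14.5 CPM in ocean males and 139.7, 28.3, 39.9, 27.6 and 167 CPM in river males. River males 2 and 6 were several times above the other 3, and no river male overlapped the ocean males (2.46 ± 0.47, adjusted p = 0.00177). Spawning males were at 2416 to 3779.5 CPM. The transcription factor klf9 rose (0.86 ± 0.24, adjusted p = 0.013), a call lost without river male 4 (adjusted p = 0.0574) or river male 6 (0.0675; range 0.0049 to 0.0675). The call of cited2 (2.07 ± 0.53) was lost without river males 2 and 6 (adjusted p = 0.0665; range 0.00247 to 0.0665), and cited2 did not pass the filter in a fit of ocean and river alone. The members dusp1, pdk4, per1b and sgk1 were not called. The chloride channel cftr was at 0.696, 0.386, 1.10, 0 and 0.861 CPM and 4.83, 3.41, 5.45, 3.48 and 14.2 CPM (3.33 ± 0.53, adjusted p = 0.000566), highest in river male 6, and at 348 to 423 CPM at spawning.

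Lipid storage and oxidation genes rose in 15 of 26 cases and fell in 1 (median 1.00). The fatty acid activating enzyme acsl1a was at 3.06, 2.51, 4.34, 4.37 and 4.09 CPM in ocean males and 16.2, 7.46, 17.2, 10.9 and 19.4 CPM in river males, with no overlap (1.95 ± 0.25, adjusted p = 0.00015). The co-activator of mitochondrial genes ppargc1a was at 0.209, 0.45, 0.0689, 0.198 and 0.269 CPM and 3.29, 1.75, 3.07, 1.78 and 3.71 CPM (3.45 ± 0.62). The member that fell was pdk2a (-1.26 ± 0.32), a kinase that inhibits pyruvate dehydrogenase. The rises numbered 9 when scaled by library size, 8 with ocean and river alone in the fit, 8 without river male 2, 8 without river male 6 and 6 without both. Glycolysis and glycogen genes rose in 9 of 25 cases, with 4, 5, 4 and 3 under the last 4 of these settings. The phosphofructokinase pfkma was at 0.418, 0.321, 0.138, 0.198 and 0.161 CPM and 1.10, 0.476, 0.878, 0.923 and 1.39 CPM (1.92 ± 0.43). At these low levels pfkma did not pass the filter in a fit of ocean and river alone. Of genes with a symbol 24.7% rose and 17.4% fell. Subunits of the respiratory chain and their assembly factors rose in 5 of 32 cases and fell in 2 (median 0.16). There were 3 rises without a filter, with library size only and without river male 2 or 6, while the 2 falls became 7 with library size only, 4 in a fit of ocean and river alone, 4 without river male 5 and 0 without river males 2 and 6.

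Chromatin genes moved both ways, with 14 of 68 risen and 22 fallen (median -0.12; 12 risen and 12 fallen without river males 2 and 6). The arginine methyltransferase prmt1 was at 65.6, 103.32, 60.1, 75.8 and 93.1 CPM in ocean males and 34.2, 36.0, 21.4, 40.0 and 15.5 CPM in river males, lowest in river male 6 (-1.43 ± 0.25, adjusted p = 0.00091). The bromodomain gene brd8b was at 33.3, 39.3, 55.0, 44.1 and 43.3 CPM and 128, 127, 173, 104 and 173 CPM (1.71 ± 0.17, adjusted p = 3.93e-05). Heat shock and folding genes also split, with 17 of 64 risen, near the 24.7% of genes with a symbol that rose. They fell in 13 of 64 cases, near the 17.4% of genes with a symbol that fell. Falls numbered 21 with library-size scaling, 8 without ocean male 3 and 6 without river males 2 and 6. The co-chaperone fkbp6, needed for piRNA production in mice, was among the falls, with 152, 161, 127, 138 and 147 CPM, 66.6, 96.1, 77.3, 67.5 and 54.4 CPM and 0 CPM at spawning (-1.005 ± 0.16, adjusted p = 0.00123). Of 16 genes on the circadian list 5 rose and 2 fell (2 and 3 without river males 2 and 6, and 3 and 5 with library-size scaling), and the repressor nr1d2b (Rev-erb beta) was at 29.3, 37.5, 62.1, 46.0 and 40.6 CPM and 153, 120.2, 217, 176 and 220.2 CPM (2.04 ± 0.21, adjusted p = 4.45e-05). The circadian list takes in cryz, cryzl1 and cryl1, which share the prefix cry but are not cryptochromes. The 2 falls were cryz (-1.17) and cryzl1 (-0.49), and cryl1 (0.78) was among the rises. The time of day of sampling is not in the labels.

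Protein turnover genes had mixed calls. Of tested genes with a symbol 24.7% rose and 17.4% fell, and rises of the ubiquitin, autophagy and apoptosis lists were near the first share. Ubiquitin ligases and testis proteolysis genes rose in 23 of 92 cases and fell in 19, and with library-size scaling 10 rose and 30 fell. Leaving out 1 library gave 10 rises without river male 4 or 6, 13 without river male 2 or 5, 13, 14 and 15 without ocean males 1, 3 and 8, and 12 falls without ocean male 8, and without river males 2 and 6 there were 11 rises and 7 falls. Of 14 proteasome subunits 2 rose (psmc2 and psmd1), with 0 rises and 4 falls under library-size scaling, 0 rises without river male 4 and 1 without river male 2, 5 or 6. Of 29 autophagy and lysosome genes 7 rose and 3 fell, and of 27 apoptosis and p53 target genes 7 rose and 4 fell. The autophagy falls numbered 7 with library size only, 5 without a filter, 6 in a fit of ocean and river alone and 5 without river male 5. The apoptosis rises numbered 4 without river male 2, and its falls 8 with library-size scaling, 7 without river male 5, 2 without ocean male 3, 8 or 9 and 1 without river males 2 and 6. Of 31 mitochondrial carriers and TCA cycle genes 5 rose and 5 fell, the falls numbering 8 with library-size scaling, 2 without ocean male 1, 3 without ocean male 3, 6, 8 or 9 and 1 without river males 2 and 6. Of 20 genes of cholesterol synthesis and uptake lipea and soat2 rose and nsdhl fell, the soat2 call being lost under 8 of 15 alternatives (0.0041 to 0.295) and the nsdhl call under 6 (0.00585 to 0.0823). In a fit of ocean and river alone soat2 did not pass the filter. Falls on that list numbered 6 with library size only, 5 in a fit of ocean and river alone, 3 without a filter, 3 without river male 2 or 5, 2 without river male 4, and 0 without river male 3 or any 1 of the ocean males. Of 9 hypoxia and angiogenesis genes angptl4 rose, a call lost without river males 2 and 6 (adjusted p = 0.0759; range 0.00067 to 0.0759), and hif1an fell.

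Taking only called genes that have a symbol, whose mean log2 CPM reached 2 and whose river and ocean males did not overlap, the largest rise was that of the cytokine receptor-like gene crlf1a. It was at 0, 0.129, 0.0689, 0.132 and 0.161 CPM in ocean males and 5.09, 1.11, 0.703, 0.213 and 9.45 CPM in river males, and at 87.4 to 157 CPM at spawning (4.90 ± 0.94, adjusted p = 0.00173). River males 2 and 6 were again highest. River male 5, at 0.213 CPM, was barely above ocean male 9, at 0.161 CPM, so the lack of overlap rests on few counts. Its mean level rests on the spawning males, and like adamtsl5, ccn4b and mcoln2 below it did not pass the filter in a fit of ocean and river alone. Next came the matrix gene adamtsl5 (4.20 ± 0.92), the sodium-phosphate cotransporter slc34a1a (3.87 ± 0.64), also a kidney tubule marker, the intermediate filament gene synm (3.83 ± 0.71), the Wnt receptor fzd8a (3.83 ± 0.70), the lysosomal protease ctsbb (3.75 ± 0.58), the matricellular gene ccn4b (3.73 ± 0.82) and the fish selenoprotein gene selenol (3.67 ± 0.62). The last 4 were zgc:86896, prok2, fam78ab and mcoln2, with changes between 3.43 and 3.49. For fam78ab the values were 7.52, 18, 18.5, 11.8 and 14.7 CPM and 107, 86.5, 196, 111 and 271 CPM (3.45 ± 0.41, adjusted p = 0.000108). Of selenol there were 2.296, 10.1, 13.8, 12.1 and 5.22 CPM, 212, 46.1, 62.4, 22.2 and 213 CPM and, at spawning, 1496 to 2812 CPM.

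By the same rule of mean level and no overlap, the largest falls lay between -1.85 and -1.45. The vitamin transporter slc5a6a was at 8.42, 8.94, 5.44, 8.73 and 10.8 CPM in ocean males and 2.58, 1.98, 2.90, 3.05 and 1.204 CPM in river males, and at 9.26 to 22.5 CPM at spawning (-1.85 ± 0.31, adjusted p = 0.000817). The next falls were tnfrsf9a, a receptor of the tumour necrosis factor family (-1.81 ± 0.57), and cbsa, cystathionine beta-synthase of the transsulfuration pathway (-1.76 ± 0.56), neither of which was called without river males 2 and 6 (adjusted p = 0.141 and 0.0828, ranges 0.00238 to 0.141 and 0.000121 to 0.0828). The others were the deubiquitinase stambpl1, the nuclease ankle1, the RNA polymerase III factor brf1a, the spindlin gene spinb, the kinase map2k6, the ribosomal RNA methyltransferase zcchc4, hoga1, the U6 RNA-binding protein lsm3 and si:ch211-117k10.3. Of these lsm3 was at 141, 258, 104, 158 and 162 CPM and 49.4, 68.8, 60.2, 87.6 and 33.7 CPM (-1.46 ± 0.28, adjusted p = 0.00162), with river male 6 lowest and no overlap. Of them map2k6 alone, beside tnfrsf9a and cbsa, lost its call without river males 2 and 6 (adjusted p = 0.0546, range 7.12e-05 to 0.0546).

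Spawning males give a reference for the direction of these changes, but the comparison of spawning with river shares the river libraries, so its values are only set beside those of river minus ocean. Several somatic and cortisol-responsive genes given by library had higher levels at spawning than in river males. Among them spawning minus river was 8.25 ± 0.73 for insl3, 6.20 ± 0.62 for star, 3.61 ± 0.45 for lhcgr, 2.88 ± 0.37 for amh and 5.23 ± 0.53 for fkbp5. Smooth muscle genes overlapped between these stages, with sums of 74.2 to 306 CPM in river and 219 to 3879 CPM in spawning males, and so did interferon genes, with 589 to 875 and 623 to 760.2 CPM. The flagellar and spermatid genes cfap157, dnah3 and ccdc62 had low levels at spawning: spawning minus river was -5.10 ± 0.24 for cfap157, -5.18 ± 0.59 for dnah3 and -5.85 ± 0.22 for ccdc62. The genes ddx4 and dnmt1 were also lower at spawning, with -10.72 ± 0.50 for ddx4 and -2.79 ± 0.18 for dnmt1. The flagellum list summed to 223 to 543 CPM at spawning, and the Leydig list to 16158 to 42749 CPM.

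The change from ocean to river was then compared between testis and ovary, in a joint fit of the 10 testis and the 8 ovary libraries of these stages. Of 30467 genes tested, the change differed in 5248 (17.2%), more positive in testis for 3213 (10.5%) and more negative for 2035 (6.68%). In the same fit the ovary alone had 0 called rises and 12 called falls (0.0394% of genes; 2988 genes at an unadjusted p under 0.05). The number that differed between gonads was 3353 without river female 8 and 3367 without river female 9. With library-size scaling the split turned to 2421 more positive and 3577 more negative in testis. The more negative genes numbered 897 without ocean male 3, 928 without ocean male 1 and 994 without river male 4. They numbered 1412 with RLE scaling and 2459 without river male 3. Ovary values by fish are in the order ocean females 2, 4, 5 and 7 and river females 1, 7, 8 and 9.

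Among genes with a symbol, of which 11.7% had a more positive and 8.56% a more negative change in testis, the smallest adjusted p was that of cep85l, which encodes a centrosomal protein. It was at 59.4, 92.1, 112, 67.7 and 74.9 CPM in ocean and 422, 332, 508, 390.1 and 582 CPM in river males. In ovary it was at 16.8, 20.1, 21.2 and 20.2 CPM in ocean females and 19.3, 20.7, 19.8 and 17.9 CPM in river females (difference of the changes 2.34 ± 0.25, adjusted p = 0.000171). The hormone-sensitive lipase lipea rose in testis (1.96 ± 0.18) and stood at -0.62 ± 0.22 in ovary (difference 2.58 ± 0.28, adjusted p = 0.000216). The translational regulator cpeb3 (2.89 ± 0.35), si:dkey-103i16.6 (2.40 ± 0.29) and the stress-induced factor atf3 (5.01 ± 0.63) followed. For atf3 the testis values were 0.487, 2.51, 1.45, 1.06 and 1.45 CPM and 7.86, 11.5, 10.5, 7.10 and 15.4 CPM, and the ovary values 33.4, 16.01, 18.3 and 12.1 CPM and 7.603, 2.46, 1.87 and 4.70 CPM. River values were above ocean values in testis and below them in ovary, where the fall was not called on its own (-2.26 ± 0.46, adjusted p = 0.0926). With all 3 stages in the fit the difference of si:dkey-103i16.6 was not called (adjusted p = 0.0958; range 2e-10 to 0.0958).

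In the other direction the smallest adjusted p among genes with a symbol belonged to slc5a6a (-2.93 ± 0.45, adjusted p = 0.00129), the splicing factor srrm1 (-1.34 ± 0.21), the mismatch repair gene pms1 (-1.69 ± 0.28), the heterochromatin protein cbx1b (-1.31 ± 0.23) and the RNA polymerase II subunit polr2c (-1.27 ± 0.22). Counts of srrm1 were even within groups: 125, 123, 128, 128 and 118 CPM in ocean and 76.9, 90.4, 71.8, 97.2 and 67.3 CPM in river males, 121, 110.4, 142 and 115 CPM in ocean and 162, 175, 215 and 191 CPM in river females. The river values were below the ocean values in testis and above them in ovary. Of the largest rises in testis, fam78ab differed from ovary by 3.95 ± 0.66 (adjusted p = 0.00213), and ptprc differed by 2.41 ± 0.41 (0.00262). The dynein dnah3 differed by 4.04 ± 1.008 (0.0162), but was not called with all 3 stages in the fit (0.051; range 0.000504 to 0.051).

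For lhcgr, star, amh and insl3 the difference between the gonads was not called. On the wider lists, 3 of 15 tested genes of the receptor list, 2 of 26 Sertoli and TGF-beta genes and 2 of 13 growth axis genes had a more positive change in testis, and 0 of 23 Leydig and steroid genes did. Of genes with a symbol 11.7% did, and 8.56% had a more negative change. More positive were 5 of 5 smooth muscle, 7 of 12 endothelial and 20 of 45 matrix genes (1 more negative). So were 21 of 75 flagellar and 13 of 41 mitotic genes, while 12 of 32 ribosomal protein genes were more negative. DNA replication genes, which fell in testis, were more negative in 3 of 35 cases and more positive in 1. For germ-cell RNA and piRNA factors this was so in 2 and 1 of 16 cases. The median changes of DNA replication and piRNA lists in ovary were -0.50 and -0.36. The median change of these flagellar, mitotic and ribosomal lists in ovary was -1.05, -0.62 and 0.12. In the fit of testis alone it was 0.90, 0.04 and -0.57. For lhcgr the ovary values were 13.0, 16.9, 30.5 and 29.0 CPM in ocean and 42.3, 89.2, 61.1 and 48.3 CPM in river females, and the difference of the changes was 1.75 ± 0.64 (adjusted p = 0.0649), which was called under 7 alternatives (0.0232 to 0.127). For star it was 0.67 ± 0.68 (adjusted p = 0.509) and for amh 0.29 ± 0.45 (adjusted p = 0.671). The SE of the star and amh differences allow values of either sign. For insl3, at 0.199, 0.334, 0.0563 and 0 CPM in ocean and 0.118, 0.0723, 0.0643 and 0.198 CPM in river females, the difference was 3.20 ± 1.46 (adjusted p = 0.128), with a call from DESeq2 (range 0.0144 to 0.37), and these ovary counts limit what can be detected. The ddx4 difference was -0.87 ± 0.58 (adjusted p = 0.294).

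**Figure D4:**
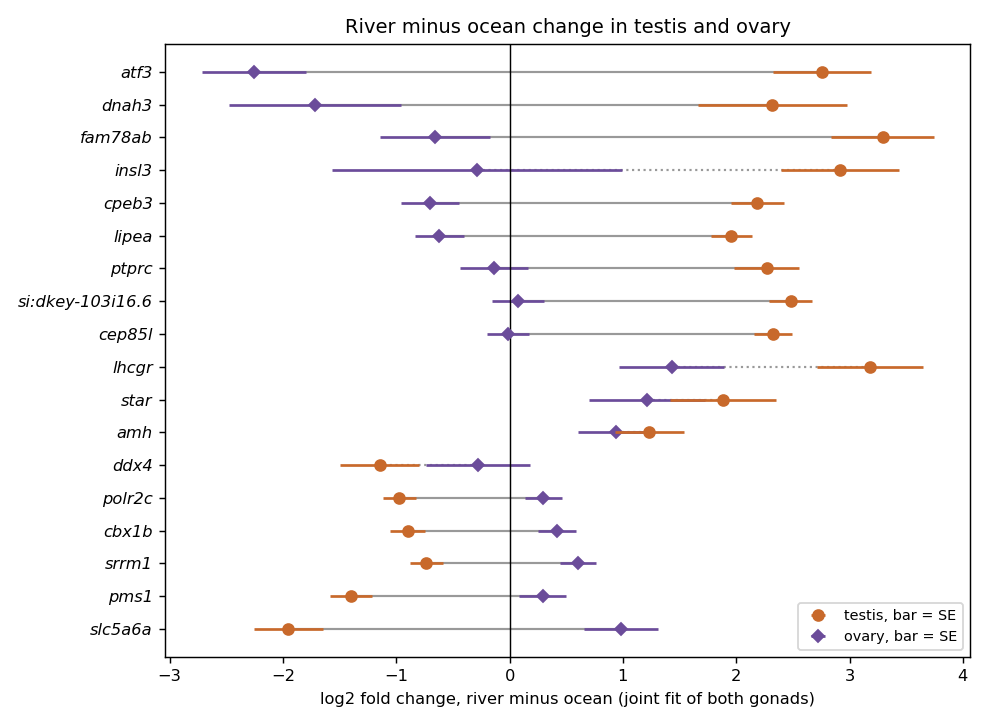
River minus ocean log2 fold change of 18 genes in testis (circles) and ovary (diamonds) from the joint fit, with bars of 1 SE. Solid lines join the gonads where the change differed (adjusted p under 0.05) and dotted lines where it was not called, as for insl3, lhcgr, star, amh and ddx4.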

How the data were processed

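PolyA-enriched RNA of testis tissue, labelled gonads, was sequenced by the authors. Per the submitters' processing notes, reads went through Salmon 1.8.0 and Trim Galore 0.6.4, with R 4.3.3 also named and no order given; the genome build, annotation and step from transcripts to genes are not given in the sources used here. The deposited files hold expected counts per gene (40756 genes, 32639 of them named only by a LOC number), which were rounded to whole numbers. No LOC gene is named, since the table used gives them no description, and near-identical copies of genes, common in salmonids, may share reads.

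Genes were filtered with filterByExpr by stage, scaled by TMM and fitted with edgeR 4.0.16 (quasi-likelihood test, Benjamini-Hochberg adjustment; R 4.3.3) over the 15 testis libraries with the contrast river minus ocean. The difference from ovary was tested as an interaction of sex and stage in 18 gonad libraries. The share of the 10 most abundant genes was compared by an exact permutation test. The script was tested on simulated data. Files were joined to labels through the sample codes in the column names. Alternatives were RLE and library-size scaling, no filter, DESeq2 1.42.0, other samples in the fit, the fish number as a block, and each library left out.

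The comparison, the 39 gene lists and the 6 lists of markers of other tissues were chosen with earlier results of these data known. Named genes were the 12 largest rises and falls among called, non-overlapping genes with a symbol and an average log2 CPM of at least 2, up to 3 called members per list and direction, a set of key genes, and the 5 smallest adjusted p in each direction for the ovary difference. Other genes named were chosen after their values were seen. Replicates are different fish per the labels, and p-values measure the spread between these fish, with stage and sampling site or date not separable. The least different pair of libraries within a stage had a chi-square per gene of 12.7, so none was counted as a repeat. Analyses used Python 3.11.15, pandas 2.3.3, scipy 1.17.1 and matplotlib 3.10.9.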

Additional observations from a re-analysis of the deposited data

Results flagged for a closer look

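In 252 groups of 5 libraries, 16 (6.35%) had 1 library far from the other 4, where chance gives about 1 group in 20. Among single genes these were igf3 in river male 2 (48.8 CPM), c1qc in river male 2 (43.3 CPM), cd40 in river male 3 (17.3 CPM), cftr in river male 6 (14.2 CPM), lrp2b in ocean male 3 (45.3 CPM), klf9 in ocean male 6 (12.1 CPM), and, on the low side, piwil1 in ocean male 6 (151 CPM). Among summed list levels these were the IGF and growth axis in river male 2 (185 CPM), Leydig and steroid genes in ocean male 1 (332 CPM, low), T, B and NK cell genes in river male 3 (24.9 CPM), and junction genes in river male 2 (1153 CPM, low). Marker sums standing apart were those of kidney tubule in ocean male 3 (59.1 CPM), liver in river male 5 (11.4 CPM), muscle in ocean male 3 (7.59 CPM) and ovary in ocean male 6 (38.2 CPM). The 10 most abundant genes took 6.56% of the counts in ocean male 6, above the other ocean males.

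The change from ocean to river differed between testis and ovary in 5248 genes. Among those described, the change was more positive in testis for cep85l (2.34), lipea (2.58), cpeb3 (2.89), si:dkey-103i16.6 (2.40), atf3 (5.01), fam78ab (3.95), dnah3 (4.04) and ptprc (2.41), and more negative for slc5a6a (-2.93), srrm1 (-1.34), pms1 (-1.69), cbx1b (-1.31) and polr2c (-1.27), all as differences of log2 changes.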

How the results depend on the processing

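Of 193 named genes 186 were called, and 130 of these kept direction and call under each of the 16 alternatives other than the block that tested them (179 of the 193 were tested with ocean and river alone); 56 lost the call under at least 1 and 0 turned direction. The counts of 7273 higher and 3764 lower genes ran from 4427 to 7593 and from 2844 to 5326 when 1 male was left out, and the 4427 higher genes were those without river male 6. They were 3685 and 2036 without river males 2 and 6, chosen after seeing the data, and 6563 genes were lower with library-size scaling. With ocean and river alone in the fit 5795 genes were higher and 5522 lower. The 5248 genes that differed from ovary ran from 3353 (without river female 8) to 7459 (without river male 5) with 1 fish left out, and were 3367 without river female 9 and 7830 with DESeq2. With the fish number as a replicate block there were 1771 higher, 578 lower and 0 different genes, with 3 and 6 residual degrees of freedom, and 102 named genes lost the call; same-numbered fish are different fish, and their deviations correlated at 0.101 (fish 3) and 0.0665 (fish 6). Uncalled genes changed sign: sycp3 was at -0.21 with library size, -0.13 without a filter, -0.064 with ocean and river alone, and from -0.10 to 0.086 with 1 male left out (negative without river male 4, 5 or 6). With 1 male left out mki67 ran from -0.25 to 0.024 (positive without ocean male 3 or 6), dmrt1 from -0.22 to 0.39 and igf3 from -0.18 to 0.88, both negative without river male 2. Without river males 2 and 6 dmrt1 was at -0.28, igf3 at -0.19, mki67 at 0.12 and pgr at -0.052. The cause of these moves was not tested. The share of the 10 most abundant genes differed by 1.27 percentage points and that of the 50 most abundant by 1.49 (exact permutation p = 0.0397). Low counts limit the precision for insl3 in ovary.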

Other observations

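Genes of RNA handling, grouped by the stem of their symbol after their values were seen, were mostly lower in river testis. All 8 tested exosome subunits (exosc), which degrade and trim RNA, fell, with changes from -1.38 to -0.61 and a median of -1.10. Of 10 tRNA methyltransferase genes (trmt) 6 fell and 0 rose (median -0.87), and of 14 general transcription factor genes (gtf) 9 fell and 0 rose (median -0.62). Of 21 DEAD-box helicases (ddx) 14 fell and 1 rose (ddx58, an RNA sensor of antiviral defence). Mitochondrial ribosomal proteins fell in 9 of 17 cases for the small subunit and in 13 of 35 for the large one, with 1 and 2 rises.

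Other groups found in the same way were higher. Of 8 semaphorin genes (sema), which guide cells and axons, 4 rose and 0 fell (median 1.36), and of 25 leucine-rich repeat genes (lrrc) 12 rose and 1 fell. Since these groups were picked for how they moved, the counts are a description without a test. For reference, 24.7% of all tested genes with a symbol rose and 17.4% fell.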
